A study of Mus musculus with 3 samples.

Results

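The genes described here are 40 genes of glucose uptake, glycolysis, lactate handling and the hypoxia response, chosen by name from all 27724 genes that the array's probes represent. They were measured by 75 of the 41167 probes that were not controls. The rule used gene names and roles and no measured value, but the set was chosen with earlier results of these data known. Every gene on the list is accounted for. The cells were C3H10T1/2, a mouse embryonic mesenchymal line that grows as fibroblasts and is used in cell transformation assays, and the series title names hexavalent chromium, Cr(VI), ERK activation and transformation as its subject. There were 3 groups. One was left untreated, one received 0.01 uM Cr(VI) and one received 1 uM Cr(VI), and the labels name no other agent for any of them. Each group had 3 flasks of 25 cm2. Exposure began 24 h after 2000 cells had been seeded per flask, lasted 48 h and was followed by culture in fresh medium to day 15, when cells were taken for RNA, so the arrays describe cells long after the metal had been removed. There was 1 array per group, and pooling of RNA across flasks is not stated. No group could therefore be tested against another, and differences are between single arrays, with no replicate check.

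Glycolysis turns glucose into pyruvate in the cytosol. Glucose enters through GLUT transporters, is phosphorylated by hexokinases, passes the rate-setting phosphofructokinase step and leaves as pyruvate, which is either oxidised in mitochondria or reduced to lactate and exported. Many of these genes are targets of the hypoxia-inducible factors (HIFs), dimers of an oxygen-labile alpha subunit (Hif1a or Epas1) with Arnt. With oxygen present, prolyl hydroxylases of the Egln family mark the alpha subunit, and Vhl, part of a ubiquitin ligase, directs it to degradation. Oxygen was not given as a variable of this experiment, and transcript levels do not report HIF protein.

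Levels are given as log2 of the processed spot intensity relative to the 75th percentile of the same array, so a level of 0 equals that percentile and 1 unit is 2-fold. Levels are compared only for the same probe between arrays. Each gene is represented by its brightest probe. Differences are in log2 units, 1 uM or 0.01 uM minus untreated, or 1 uM minus 0.01 uM. The error after ± is the standard error (SE) that the scanner software's error model gives for the spots (n = 1 array per group). It is technical and leaves out differences between cultures. Where a probe had several spots, it is the mean of their single-spot errors and is not reduced for their number. Of the 40 genes, 36 were well above background on every one of the 3 arrays, so none of them entered a comparison through 1 array alone. The other 4, the neuronal-type glucose transporter Slc2a3, the aldolase Aldoc, the prolyl hydroxylase Egln3 and the carbonic anhydrase Car12, were not well above background on any array with any of their probes. A further 9 genes had saturated spots that left no fold in any of the comparisons, and 27 genes had a value.

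At 1 uM, the 40-gene set lay low against untreated cells. Of the 27 genes with a value, 24 were below 0 and 3 above, with a median log2 difference of -0.46, against -0.02 over all 12270 genes with a value. At least 2-fold lower were 5 of the 36 genes compared (13.9%), against 4.86% of all 12449 genes compared. These 5 were Epas1, Pfkfb3, Slc16a3, Egln1 and Adm. At least 2-fold higher was 1 gene, Pfkfb4, against 5.57% of all genes. At 1.5-fold, 10 were lower and 1 higher, against 13.4% and 13.8% of all genes. At 0.01 uM no gene of the set was 1.5-fold apart from untreated cells in either direction, so 0 were 2-fold apart. Over all 11914 genes compared, 0.260% were 2-fold or more above untreated and 0.168% as far below, and at 1.5-fold the shares were 0.898% above and 1.13% below.

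**Figure D1:**
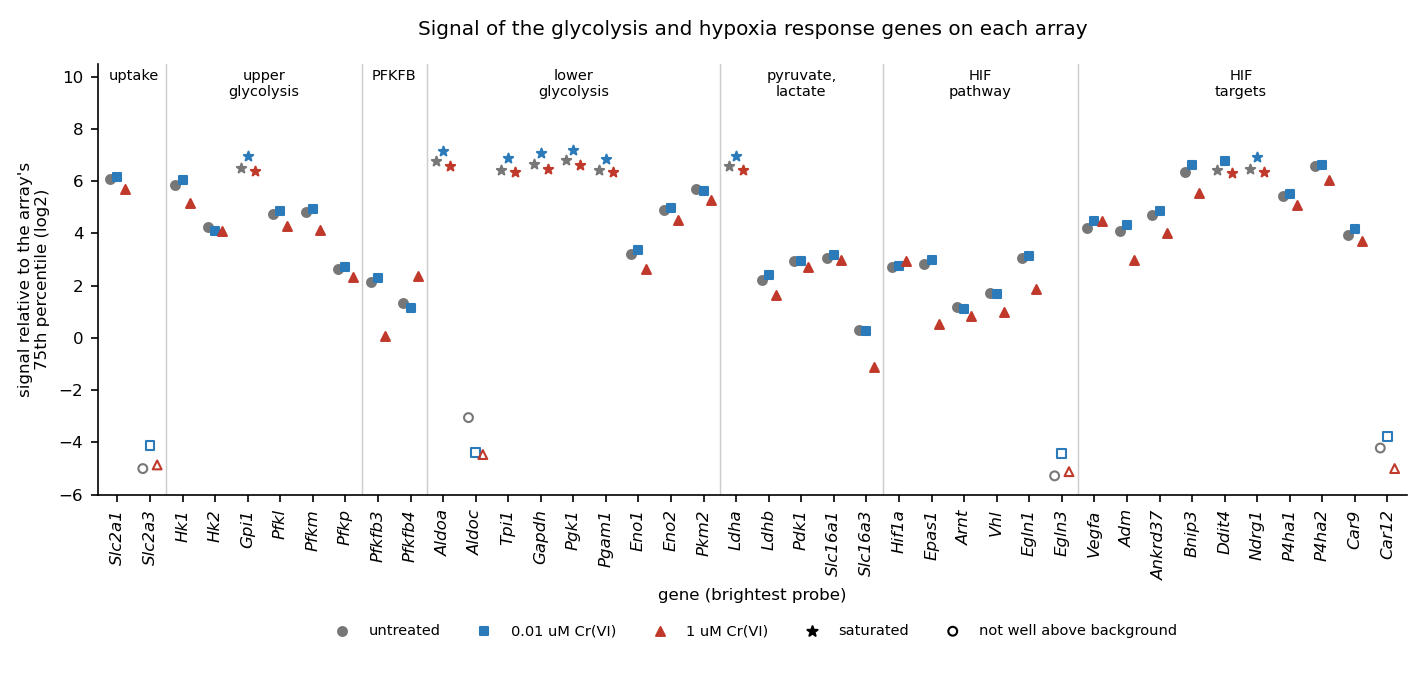
Level of each gene on its brightest probe on the untreated, 0.01 uM and 1 uM arrays, as log2 signal relative to the array's 75th percentile (vertical axis), with genes in the order of their roles; stars mark saturated spots and open symbols spots not well above background. The 0.01 uM and untreated symbols lie close together for every unsaturated gene well above background, while the 1 uM symbols of Pfkfb3, Slc16a3, Epas1, Egln1 and Adm lie lower and that of Pfkfb4 lies higher; heights are comparable within a gene only.

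In glucose uptake, Slc2a1, which encodes the widespread transporter GLUT1, had levels of 6.10 on the untreated, 6.15 on the 0.01 uM and 5.68 on the 1 uM array. The 1 uM value was lower than untreated by a log2 difference of -0.42 ± 0.20, short of 1.5-fold. Slc2a3 was read by 3 probes, all dim, so GLUT1 is the transporter of the pair that these arrays could follow.

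The hexokinase genes gave values of different size. Hk1, the broadly expressed hexokinase bound to mitochondria, had levels of 5.85 untreated, 6.05 at 0.01 uM and 5.18 at 1 uM. It was 1.59-fold lower at 1 uM than untreated (-0.67 ± 0.20), and the 3 further Hk1 probes above background gave -0.49, -0.51 and -0.61. Hk2, the inducible isoform and a known HIF target, stood at 4.24 untreated, 4.10 at 0.01 uM and 4.10 at 1 uM. Its difference at 1 uM, -0.14 ± 0.20, was within its technical error.

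Phosphofructokinase, the committed step, is built from liver, muscle and platelet subunits. The muscle subunit gene Pfkm had levels of 4.81 untreated, 4.94 at 0.01 uM and 4.11 at 1 uM, and was 1.62-fold lower at 1 uM than untreated (-0.70 ± 0.20). The liver subunit gene Pfkl stood at 4.75, 4.85 and 4.29 on the untreated, 0.01 uM and 1 uM arrays. The platelet subunit gene Pfkp stood at 2.64, 2.72 and 2.34 on the same arrays. All 3 were lowest at 1 uM, but only Pfkm passed 1.5-fold, and the Pfkp probes did not give 1 direction. Its brightest probe differed by -0.30 at 1 uM, another by 0.48 and a dim one by -1.01 ± 0.36. Gpi1, the isomerase between hexokinase and phosphofructokinase, was saturated on all arrays with its brightest probe.

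The bifunctional enzymes Pfkfb3 and Pfkfb4 make and break fructose 2,6-bisphosphate, the activator of phosphofructokinase, and both are textbook HIF targets. They were the widest-spread pair of the set. Pfkfb3 had levels of 2.13 untreated, 2.31 at 0.01 uM and 0.08 at 1 uM. The 1 uM array stood alone on the low side, 4.15-fold lower than untreated (-2.05 ± 0.21), with a probe placed at chr2:11393579-11393638 (mm9). Pfkfb4 had levels of 1.33 untreated, 1.16 at 0.01 uM and 2.36 at 1 uM. Here the 1 uM array was the high one, 2.05-fold higher than untreated (1.03 ± 0.20), close to the 2-fold line, with a probe at chr9:108934627-108934686 (mm9). Each gene rested on 1 probe, since Pfkfb4 had no other and the 2 further Pfkfb3 probes were not well above background on any array. Under all 11 alternative settings tried, Pfkfb3 stayed at least 2-fold lower (-1.37 at the nearest to 0) and Pfkfb4 at least 2-fold higher (1.01 to 1.72). Several of these settings could not move either value. The filters on dim probes and the mean of probes return the same single probe, and the deposited values share the scale used here. Their promoters are printed to show the pair with opposite differences, in windows from 250 bases before to 50 bases after the start site (RefSeq, GRCm38.p6, 5′ to 3′ along the gene). Capitals mark ACGTG or GCGTG on either strand, the core of the hypoxia response element, where overlapping matches run together. Pfkfb3 has 2 windows, and the one with more matches is shown. Of its 4 matches, an ACGTG on each strand overlap at -53 and -52 from the start. The Pfkfb3 window that is not shown has 1 match, an ACGTG at -60. Pfkfb4 has 1 match, a GCGTG at -117.
Pfkfb3 promoter, chr2:11502041-11502340, minus strand: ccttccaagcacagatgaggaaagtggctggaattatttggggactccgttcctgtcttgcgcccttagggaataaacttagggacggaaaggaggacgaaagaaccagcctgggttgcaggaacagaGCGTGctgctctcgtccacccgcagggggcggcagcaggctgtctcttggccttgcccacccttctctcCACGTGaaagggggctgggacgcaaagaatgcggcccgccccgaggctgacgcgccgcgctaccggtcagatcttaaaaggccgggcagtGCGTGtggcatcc
Pfkfb4 promoter, chr9:108991652-108991951, plus strand: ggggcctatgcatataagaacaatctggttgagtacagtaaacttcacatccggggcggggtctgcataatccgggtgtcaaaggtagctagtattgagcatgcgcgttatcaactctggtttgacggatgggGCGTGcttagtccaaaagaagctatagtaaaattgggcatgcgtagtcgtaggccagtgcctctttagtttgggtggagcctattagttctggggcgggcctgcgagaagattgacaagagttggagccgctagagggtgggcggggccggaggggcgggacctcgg

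Most of lower glycolysis, from aldolase to pyruvate kinase, could not be compared because its spots were saturated. Aldoa, Tpi1, Gapdh, Pgk1 and Pgam1 were saturated on all 3 arrays, as were the second probes of Aldoa, Gapdh and Pgk1. A saturated spot gives only a lower limit of its level, so no fold is given for these 5 genes. Several of these genes have processed pseudogenes in mouse, and cross-hybridisation was not tested. The enolase gene Eno1 had levels of 3.23 untreated, 3.35 at 0.01 uM and 2.64 at 1 uM, a difference at 1 uM of -0.58 ± 0.20, just short of 1.5-fold. The neuronal enolase Eno2 stood at 4.88, 4.96 and 4.51 on the untreated, 0.01 uM and 1 uM arrays, with a difference at 1 uM of -0.38 ± 0.20 and of -0.58 on its second probe. Both enolases were lowest on the 1 uM array. The pyruvate kinase gene, named Pkm2 on the array and Pkm in RefSeq, stood at 5.69 untreated, 5.62 at 0.01 uM and 5.27 at 1 uM. Its brightest probe differed by -0.42 ± 0.20 at 1 uM and a second by -0.61, whereas the other further probe, at chr9:59520400-59520459 (mm9), differed by 0.48.

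At the branch from pyruvate to lactate stand the lactate dehydrogenase genes and Pdk1. Ldha, which favours lactate formation, was saturated on its brightest probe. Its second probe was unsaturated at 1 uM only and put Ldha at least 1.74-fold lower than untreated (-0.80). Ldhb, which favours the reverse reaction, had levels of 2.21 untreated, 2.42 at 0.01 uM and 1.65 at 1 uM, a difference at 1 uM of -0.56 ± 0.20, short of 1.5-fold. Pdk1, the kinase that shuts pyruvate dehydrogenase and a HIF target, stood at 2.93 untreated, 2.95 at 0.01 uM and 2.73 at 1 uM. Its difference at 1 uM, -0.20 ± 0.20, did not exceed the technical error, while its second probe gave -0.51.

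The monocarboxylate transporters that carry lactate gave values of different size. Slc16a3, which encodes the lactate exporter MCT4, had levels of 0.30 untreated, 0.28 at 0.01 uM and -1.13 at 1 uM. The first pair of arrays nearly coincide and the 1 uM array was 2.68-fold lower than untreated (-1.42 ± 0.23), on a single probe at chr11:120820023-120820082 (mm9). Slc16a1, which encodes the widespread transporter MCT1, stood at 3.05 untreated, 3.18 at 0.01 uM and 2.99 at 1 uM. Its difference at 1 uM was -0.07 ± 0.20, and a second probe gave 0.24 ± 0.20. The Slc16a3 promoter is printed because its 2 matches are both ACGTG on the strand printed, at -27 and -14, in the last bases before the start.
Slc16a3 promoter, chr11:120948817-120949116, plus strand: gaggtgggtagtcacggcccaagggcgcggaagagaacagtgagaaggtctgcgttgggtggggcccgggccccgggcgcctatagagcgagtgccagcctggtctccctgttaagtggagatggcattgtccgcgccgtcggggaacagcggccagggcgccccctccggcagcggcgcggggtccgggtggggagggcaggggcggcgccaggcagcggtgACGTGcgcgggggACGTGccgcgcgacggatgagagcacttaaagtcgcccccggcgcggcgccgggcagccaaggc

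**Figure D2:**
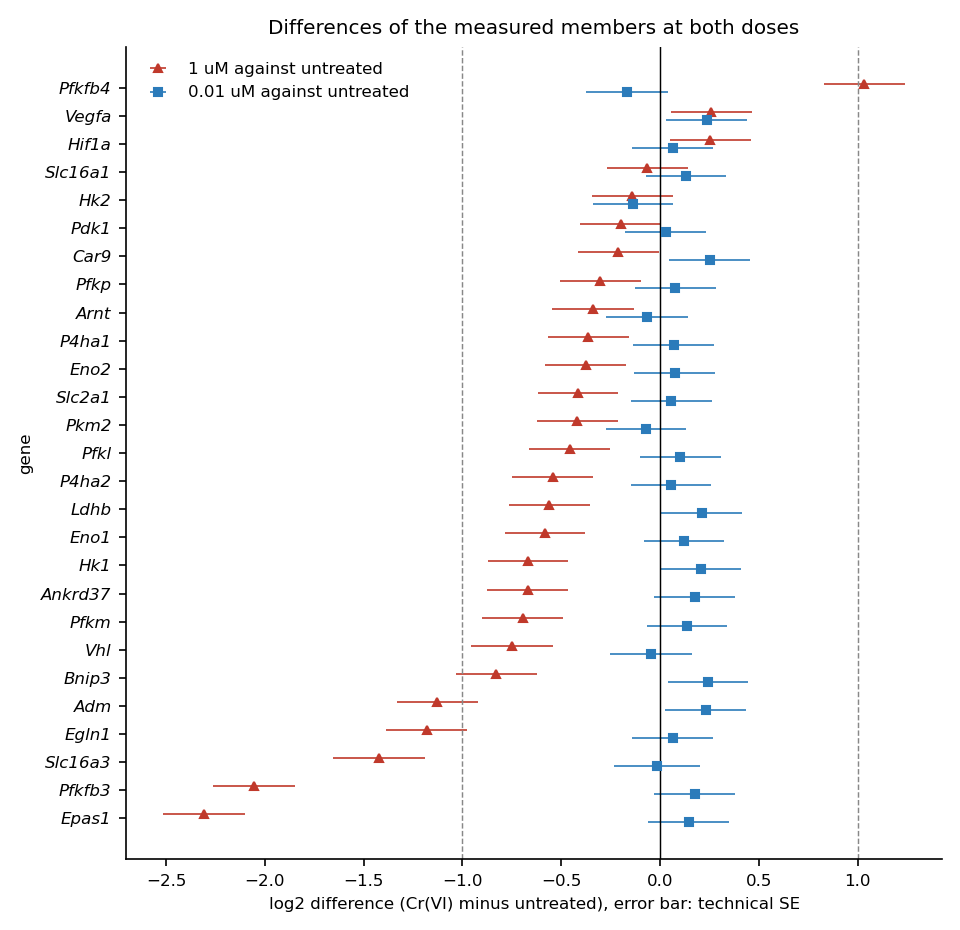
Log2 difference of each of the 27 genes with a value, 1 uM minus untreated and 0.01 uM minus untreated (horizontal axis), with the technical SE as bars (1 array per group) and dashed lines at 2-fold. At 1 uM the points run from -2.31 for Epas1 to 1.03 for Pfkfb4, whereas at 0.01 uM all lie between -0.17 and 0.25.

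Among the HIF subunits, the 2 alpha subunit genes gave values far apart. Epas1, which encodes HIF-2 alpha, had levels of 2.84 untreated, 2.98 at 0.01 uM and 0.53 at 1 uM. At 1 uM it was 4.95-fold lower than untreated (-2.31 ± 0.21), the largest difference of the set, on a probe at chr17:87232615-87232674 (mm9). Its 2 further probes were not well above background on any array, so the value rests on 1 probe. Hif1a, which encodes HIF-1 alpha, had levels of 2.70 untreated, 2.76 at 0.01 uM and 2.96 at 1 uM, a difference of 0.25 ± 0.20 in the other direction and short of 1.5-fold. The shared partner gene Arnt stood at 1.19, 1.12 and 0.85 on the untreated, 0.01 uM and 1 uM arrays. Its 3 probes above background lay close together at 1 uM, at -0.34, -0.37 and -0.41.

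Of the 3 genes of the set that turn HIF off, 1 was past 2-fold at 1 uM. Egln1, which encodes the main prolyl hydroxylase PHD2 and is itself a HIF target, had levels of 3.07 untreated, 3.13 at 0.01 uM and 1.89 at 1 uM. At 1 uM it was 2.27-fold lower than untreated (-1.18 ± 0.20), on a probe at chr8:127433241-127433300 (mm9), and a second probe gave -1.39 ± 0.21. Egln1 is thus the only one of the 6 genes past 2-fold at 1 uM whose value was measured by 2 probes above background. Vhl had levels of 1.73 untreated, 1.68 at 0.01 uM and 0.98 at 1 uM, and was 1.68-fold lower at 1 uM than untreated (-0.75 ± 0.21) on its single probe. Egln3, a hydroxylase that hypoxia induces, was not well above background. The Egln1 window, printed as that of the gene with agreeing probes, holds GCGTG at -126 and ACGTG at -68.
Egln1 promoter, chr8:124949205-124949504, minus strand: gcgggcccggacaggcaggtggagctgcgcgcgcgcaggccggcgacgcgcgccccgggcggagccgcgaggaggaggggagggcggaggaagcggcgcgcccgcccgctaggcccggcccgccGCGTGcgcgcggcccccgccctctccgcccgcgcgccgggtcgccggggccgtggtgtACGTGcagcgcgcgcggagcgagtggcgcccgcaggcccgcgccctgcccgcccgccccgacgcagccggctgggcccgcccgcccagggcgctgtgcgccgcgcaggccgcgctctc

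Of the 10 remaining genes, all HIF targets in textbooks, 7 had a value and 6 of them were below 0 at 1 uM, with a median of -0.54. Adm, which encodes the vasodilator peptide adrenomedullin, had levels of 4.09 untreated, 4.33 at 0.01 uM and 2.97 at 1 uM. It was 2.18-fold lower at 1 uM than untreated (-1.13 ± 0.20), on a single probe at chr7:117773088-117773147 (mm9). Bnip3, a mitochondrial protein of mitophagy, had levels of 6.36 untreated, 6.61 at 0.01 uM and 5.54 at 1 uM, and was 1.78-fold lower at 1 uM than untreated (-0.83 ± 0.20). Its untreated level lay just below 6.37, the lowest saturated level on that array. Ankrd37, an ankyrin repeat gene, had levels of 4.70, 4.87 and 4.03 on the untreated, 0.01 uM and 1 uM arrays, and was 1.59-fold lower at 1 uM than untreated (-0.67 ± 0.20). For all 3 genes the 0.01 uM level was the highest of the 3 and the 1 uM level the lowest. The Adm window, the last one printed, holds GCGTG at -90 and -54 on the strand opposite to the one printed, and no ACGTG.
Adm promoter, chr7:110627407-110627706, plus strand: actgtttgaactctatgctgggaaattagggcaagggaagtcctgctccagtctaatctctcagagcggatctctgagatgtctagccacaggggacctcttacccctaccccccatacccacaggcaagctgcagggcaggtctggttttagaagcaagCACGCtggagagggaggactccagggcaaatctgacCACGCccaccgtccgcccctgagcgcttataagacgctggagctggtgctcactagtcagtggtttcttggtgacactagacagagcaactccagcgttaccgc

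Vegfa, the angiogenic growth factor and the best-known HIF target, did not share that order. Its levels were 4.22 untreated, 4.46 at 0.01 uM and 4.48 at 1 uM, a difference at 1 uM of 0.26 ± 0.20, but its 3 further probes gave -0.12, -0.12 and -0.13. These Vegfa differences had no single direction. The brightest probe was averaged over 9 spots at 1 uM and 10 spots untreated, so its ± value is a single-spot error and not that of the average. The collagen prolyl 4-hydroxylase genes were lowest at 1 uM. P4ha1 stood at 5.44 untreated, 5.51 at 0.01 uM and 5.08 at 1 uM (-0.36 ± 0.20 at 1 uM, and -0.54 on a second probe). P4ha2 stood at 6.58, 6.63 and 6.03 on the untreated, 0.01 uM and 1 uM arrays (-0.54 ± 0.20 at 1 uM). Its untreated spot was not flagged as saturated, though the lowest saturated level on that array was 6.37. The carbonic anhydrase Car9, often used as a marker of hypoxia, stood at 3.93 untreated, 4.18 at 0.01 uM and 3.72 at 1 uM, and its difference at 1 uM was -0.21 ± 0.20. The stress-induced mTORC1 inhibitor Ddit4 was saturated on the untreated and 1 uM arrays, and Ndrg1, a gene of differentiation and stress, on all 3, so neither has a fold.

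At 0.01 uM the differences from untreated ran from -0.17 for Pfkfb4 to 0.25 for Car9, and most were within the technical SE of about 0.20. Of the 27 genes with a value, 21 were above 0, as were 6804 of all 11698 genes with a value. The median of the set was 0.08, against 0.04 over all genes. The 7 HIF targets with a value were all above 0, from 0.06 to 0.25. How many genes of the set lay above 0 depended on scaling, at 10 of 27 with loess scaling and 27 of 27 with spike-in scaling. Both comparisons with untreated cells use the same untreated array, so a deviation of that array would appear in both.

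The comparison of the 2 exposed groups does not use the untreated array. At 1 uM, 6 of the 36 genes compared were at least 2-fold lower than at 0.01 uM, against 6.45% of all 12057 genes compared, and 1 was at least 2-fold higher, against 5.20%. The log2 differences were -2.45 for Epas1, -2.23 for Pfkfb3, -1.41 for Slc16a3, -1.36 for Adm, -1.25 for Egln1 and -1.07 for Bnip3, and 1.20 for Pfkfb4. Bnip3 was the gene added to those past 2-fold against untreated cells, and it was past 2-fold under 5 of 11 alternative settings. Its single probe was well above background on both arrays, so the filters on dim probes and the mean of probes could not move it. At 1.5-fold, 13 genes were lower and 1 higher, against 17.3% and 12.4% of all genes. This count takes in Eno1 (1.63-fold, -0.70 ± 0.20), Ldhb (1.71-fold, -0.77 ± 0.21) and P4ha2 (1.52-fold, -0.60 ± 0.20), beside Hk1, Pfkm, Vhl and Ankrd37. At the nearest to 0 under an alternative setting, Eno1 stood at -0.32, Ldhb at -0.39 and P4ha2 at -0.08. The median of the set was -0.56, against -0.04 over all genes, but when probes not well above background were let in, the medians were -0.60 for the set and -0.66 over all genes. These values share the 1 uM array with the comparison to untreated cells.

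The size of these differences depended on how the arrays were scaled, and 1 choice turned the sign of the median. Scaling on the 5 spike-in control probes put the median of all genes at 0.65 for 1 uM against untreated, and the median of the set at 0.22, so relative to all genes the set lay at -0.42. The same relative value was -0.43 in the setting used here, -0.34 with quantile normalization, -0.32 with loess scaling and -0.46 with normexp background correction. Spike-in scaling shifts each array by 1 constant, which moves the set and all genes alike. Its -0.42 could therefore hardly differ from -0.43 and is no separate check. With spike-in scaling, Epas1 (-1.63) and Pfkfb3 (-1.37) remained 2-fold lower, while Slc16a3 (-0.74), Egln1 (-0.50) and Adm (-0.44) did not, and 19 genes of the set lay above 0 with 8 below. Hk1 and Ankrd37 then stood at 0.01 each. The amount of RNA per cell is not known from the spike-in probes. In a bulk culture, fewer cells of a type and less RNA per cell cannot be told apart.

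**Figure D3:**
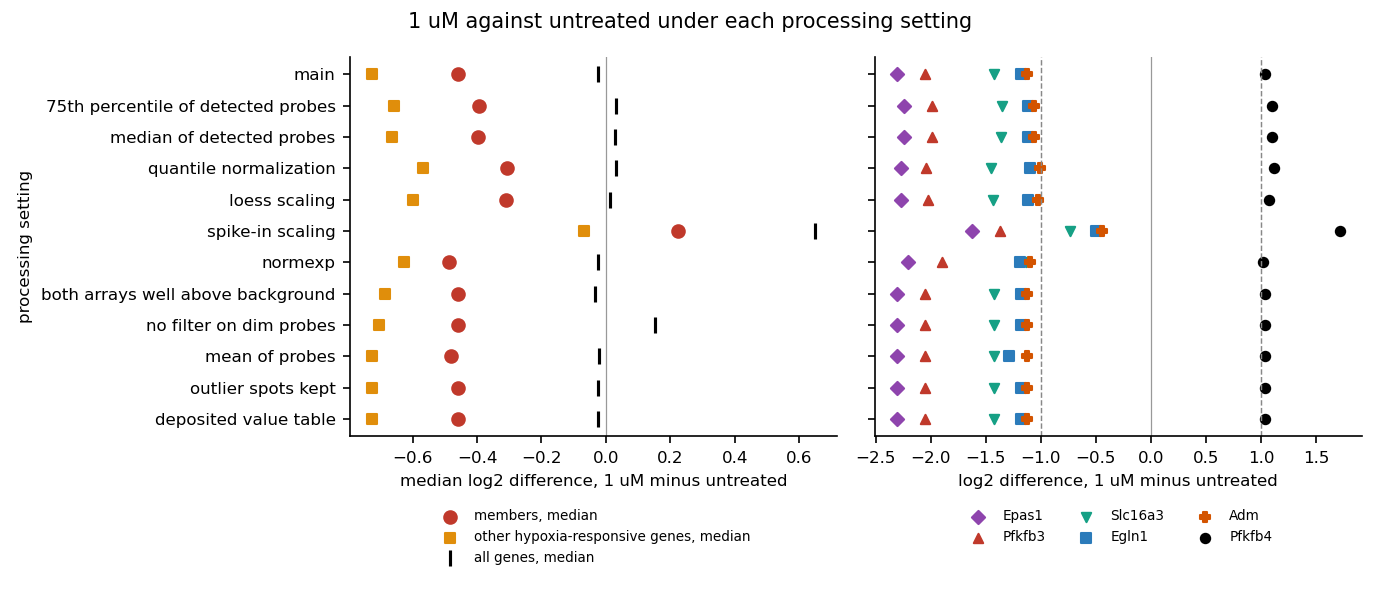
Left, median log2 difference, 1 uM minus untreated, of the 40-gene set, of the other hypoxia-responsive genes and of all genes under each processing setting; right, the same difference for the 6 genes past 2-fold, with dashed lines at 2-fold. Spike-in scaling moves every median up, with all genes at 0.65 and the set at 0.22. The difference of the set from all genes ranges from -0.32 to -0.61 over the settings, and those that shift each array by 1 constant can hardly change it.

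Further probes gave a check on single values. At 1 uM against untreated, 17 further probes of genes with a value could be compared with the brightest probe of the same gene, of which 11 had the same sign and 14 lay within 1.5-fold of it. The Egln1, Hk1 and Arnt probes ran together. The exceptions in sign were 1 probe each of Pfkp, Pkm2 and Slc16a1 and the 3 further probes of Vegfa. Epas1, Pfkfb3, Pfkfb4, Slc16a3, Adm, Bnip3, Vhl, Pfkm and Ankrd37 had no second probe above background, so no such check exists for them.

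**Figure D4:**
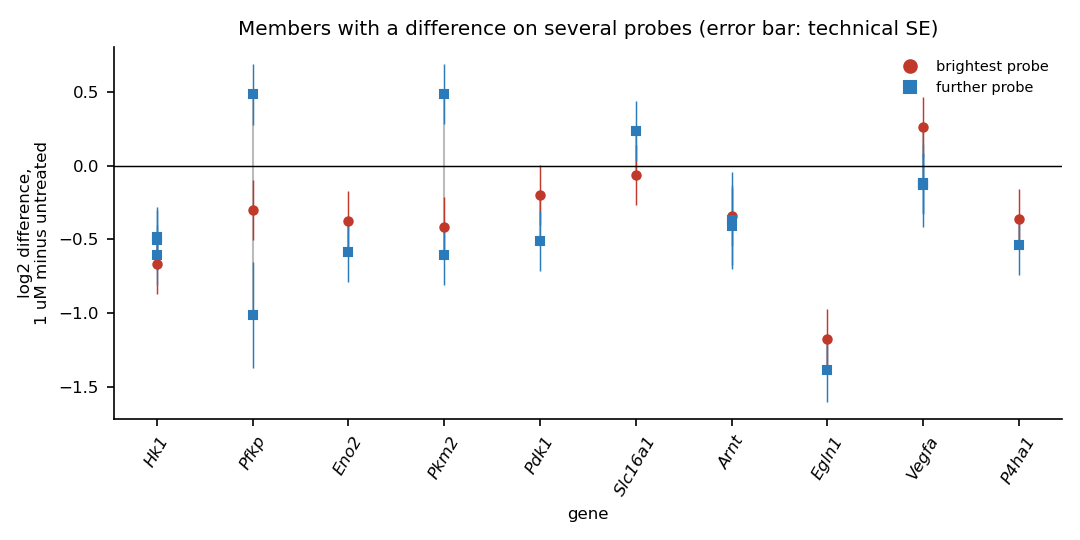
Log2 difference, 1 uM minus untreated, on the brightest probe and on each further probe for the genes of the set with more than 1 measured probe, with technical SE as bars (1 array per group). The Egln1 probes lie at -1.18 and -1.39, while the probes of Pfkp and Pkm2 lie on both sides of 0.

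Related genes outside the set were read from lists of the same pathways, 88 genes in all, of which 73 were compared at 1 uM. The 38 other hypoxia-responsive genes lay lower than the set. Of 35 compared, 9 were at least 2-fold lower than untreated (25.7%, against 4.86% of all genes) and 0 as far above (5.57% of all genes). Below 0 were 32, where 52.0% of all genes with a value were, and the median was -0.72. The largest was Selenbp1, which encodes a selenium-binding methanethiol oxidase, at 5.34-fold lower (-2.42 ± 0.23). Angptl4, an inhibitor of lipoprotein lipase, was lower by a log2 difference of -1.54, and Plod1, a collagen lysyl hydroxylase, by -1.38. Stc1, a secreted glycoprotein, stood at -1.37 with a second probe at -1.24, and Hilpda, a lipid droplet protein, at -1.35 with a second probe at -1.31. With spike-in scaling 1 of these genes was 2-fold lower and the list median was -0.07, against 0.65 over all genes.

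The other lists of sugar metabolism had medians on both sides of 0. Among 19 further genes of glycolysis and glycogen, 11 were compared at 1 uM, with a median of 0.09, 2 at least 2-fold lower (4.86% of all genes) and 1 higher (5.57% of all genes). The lower ones make glycogen, the synthase gene Gys1 at -1.18 and the branching enzyme gene Gbe1 at -1.16, which the hypoxia list also holds. The higher one was Tigar, a fructose bisphosphatase, at least 2.04-fold higher because it was not well above background in untreated cells, with a second probe at least 0.55 higher in log2. The 13 genes compared that govern pyruvate entry to mitochondria had a median of -0.28, with 9 below 0 and 4 (30.8%) at least 1.5-fold lower, against 13.4% of all genes, and 0 at least 1.5-fold higher. Among them Pdk4, another pyruvate dehydrogenase kinase, was the 1 past 2-fold, 3.23-fold lower (-1.69 ± 0.28). None of the 8 pentose phosphate genes, with a median of 0.10, and none of the 8 other genes of HIF regulation compared, with a median of -0.18, was 1.5-fold apart. At 0.01 uM none of the 72 pathway genes compared outside the set was 1.5-fold apart from untreated.

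**Figure D5:**
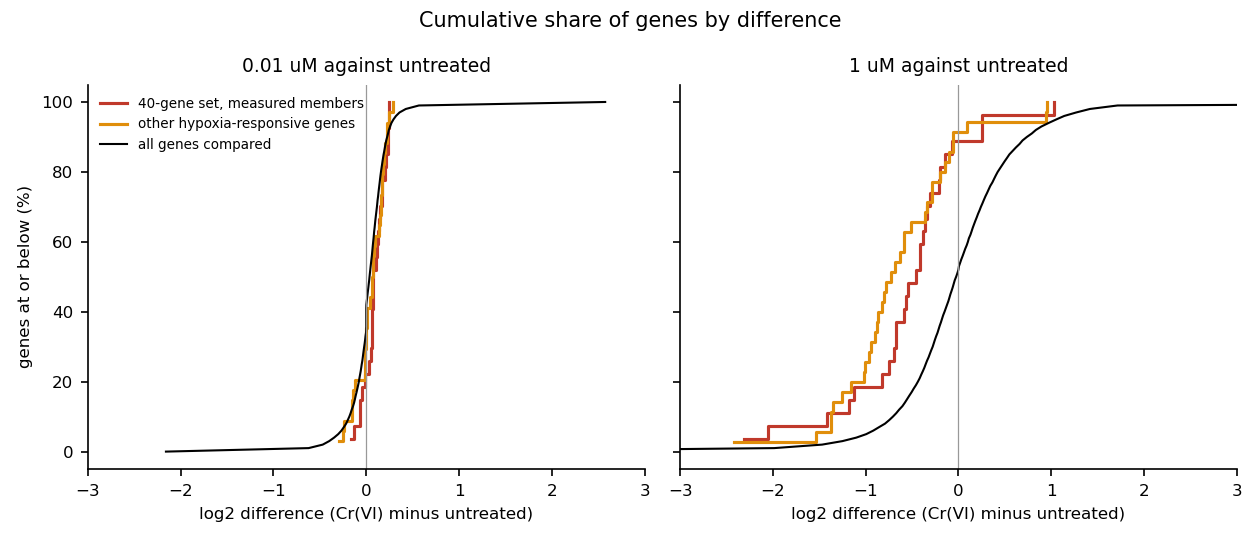
Cumulative share of genes (vertical axis, %) at or below each log2 difference, for 0.01 uM minus untreated (left) and 1 uM minus untreated (right), for the genes of the set with a value, the other hypoxia-responsive genes and all genes compared. At 0.01 uM the curves lie near 0, and at 1 uM the curves of both hypoxia-related lists lie left of all genes, with medians of -0.46 and -0.72 against -0.02.

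Promoter windows were found for 37 of the 40 genes in the RefSeq table, and Slc2a3, Epas1 and Ndrg1 are named without one. ACGTG or GCGTG on either strand occurred in 32 of the 37 (86.5%), against 46.7% of all 27025 genes with windows of the same length, and ACGTG alone in 24 (64.9%), against 21.8%. A gene counts here if any of its windows holds a match. Per window, ACGTG or GCGTG occurred in 78.4% of the 51 windows of the set, against 43.8% of all 32851 windows. These shares describe letters in a window and not binding. Many genes of the set were listed as HIF targets, and the windows were not matched for base composition. The higher shares are therefore no separate result about the set. Matches stood on both sides, since Pfkfb3, Slc16a3, Egln1 and Adm, which were lower at 1 uM, and Pfkfb4, which was higher, all held 1 or more. Slc16a1 had 5 matches at a difference of -0.07, and Vhl had 0 at -0.75.

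Over all probes, 41.8% were well above background on the untreated, 36.4% on the 0.01 uM and 41.5% on the 1 uM array, and the SD between replicate spots was 0.056 to 0.061 in log2 units. At 1 uM, 693 genes lay 2-fold or more above untreated and 605 as far below, so 53.4% of those apart were higher, against 94.7% with spike-in scaling and 39.1% with normexp. The mesenchymal label was checked with 12 markers, of which 11 at 1 uM and 12 in each other group were well above background. The exception was the fibroblast surface gene Thy1, at least 50.2-fold lower at 1 uM than untreated. With Thy1, 4 of the 12 were at least 1.5-fold lower at 1 uM (33.3%, against 13.4% of all genes). As far above was 1 of the 12, against 13.8% of all genes. The log2 of the list's summed signal was 9.26 untreated, 9.57 at 0.01 uM and 8.95 at 1 uM, but 3 of the markers were saturated on all arrays, so these sums are capped and their order is not read. Of 11 macrophage and blood markers, 4 at 1 uM and 3 in each other group were well above background, so part of this list was expressed in every group. The log2 of its summed signal was 3.26 untreated, 3.35 at 0.01 uM and 3.47 at 1 uM. Ptprc, Tyrobp and Laptm5 were among its markers that were not well above background. They do not speak for the whole list, since the markers above background were other genes of it. Whether macrophage or blood cells were present in the cultures was not tested. Of 6 epithelial and 6 endothelial markers, 1 each (Krt19 and Cdh5) was well above background at 1 uM and 0 in the other groups. Sums over these 2 lists are not given, since untreated and 0.01 uM cells had no marker above background in them. The part of these marker differences in the values of the set was not tested.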

How the data were processed

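RNA of each group was labelled with Cy3 and hybridised to an Agilent whole-genome mouse array. The authors' spot intensity values were extracted with Agilent Feature Extraction 10.5.1.1, per the file headers, which also give probe positions on mm9. The deposited value table holds log2 values. Each of its columns differed from the log2 processed signal by a constant, 9.45 untreated, 9.01 at 0.01 uM and 9.56 at 1 uM, within 0.01 for over 99.8% of probes, and the column medians were -4.23, -3.96 and -4.03 in the same order. Its scale and centring are therefore those used here.

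Control and outlier spots were left out, spots of a probe averaged, and each array's 75th percentile of the log2 processed signal subtracted. A comparison needed the gene's brightest probe to be well above background on 1 array or both. With 1 array only, the fold is a lower bound, set against the dim probe's own signal or, if higher, the weakest signal that counted as well above background there. Where both spots, or the dimmer one, were saturated, no fold is given. The genes past 2-fold were counted without a test, in 3 comparisons with 1 array per group, so the number of arrays limits the precision. All 40 genes are named, and of the other lists those past 2-fold, up to 6 per direction and list. A gene that met this rule is not reported here. The set, the lists and the settings were chosen with earlier results of these data known. Quantile and normexp (offset 50) settings used limma 3.58.1 in R 4.3.3, and other steps pandas 2.3.3, numpy 2.4.6 and, for loess (span 0.4), statsmodels 0.14.6 in Python 3.11.15. The counting was tested on simulated data. Promoter windows of 300 bases and current gene symbols came from RefSeq (GRCm38.p6).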

Additional observations from a re-analysis of the deposited data

How the results depend on the processing

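With 1 array per group no replicate could be left out, and no array effect can be told apart from the dose. No paired analysis was possible because each group has 1 array and no result comes from a test. Each difference of a single gene of the set past 1.5-fold was counted once under each alternative setting. Of these cases, 233 moved by less than the technical SE and 42 by more. Part of the 233 could not move, because several settings leave a gene with 1 probe above background unchanged. The counts are therefore not a measure of how stable the values are. The count of genes at least 2-fold lower at 1 uM than untreated was 2 with spike-in scaling and 10 at a 1.5-fold threshold, and spike-in scaling put the median at 0.22. For 1 uM against 0.01 uM the lower count was 3 with spike-in scaling and 13 at 1.5-fold, and the median was -0.24 with quantile normalization, -0.24 with loess scaling and -0.18 with spike-in scaling. For 0.01 uM against untreated, spike-in scaling put the median at 0.38, and 1 gene was 2-fold lower when probes not well above background were let in.

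For the other pathway genes, whose alternatives were chosen after seeing the data, the counts at 1 uM against untreated moved as follows. The other HIF targets at least 2-fold higher numbered 2 with the 75th percentile or the median of detected probes, quantile normalization, spike-in scaling or a 1.5-fold threshold, and 1 with loess scaling or the mean of probes. Those lower numbered 1 with spike-in scaling and 21 at 1.5-fold. Over all these lists, the higher count was 3 with the 75th percentile or the median of detected probes, 2 with quantile normalization, 9 with spike-in scaling, 0 with normexp or with both arrays required above background, and 5 at 1.5-fold. The lower count was 2 with spike-in scaling and 27 at 1.5-fold.

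Over all genes, spike-in scaling put the median at 0.34 for 0.01 uM against untreated and 0.28 for 1 uM against 0.01 uM, where it was 0.04 and -0.04 in the setting used. The share of genes apart that were higher was 44.6% for 1 uM against 0.01 uM, against 57.6% with the 75th percentile of detected probes, 58.2% with loess and 79.2% with spike-in scaling. It was 60.8% for 0.01 uM against untreated, against 48.3% with the 75th percentile of detected probes, 70.8% with quantile and 92.8% with spike-in scaling. Saturation, not dimness, limited most of the lower glycolysis genes.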

Other observations

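Some probes of the set stood apart from the brightest probe of their gene, and were singled out after their values were seen. A dim Gpi1 probe at chr7:34994862-34994921 (mm9) was 0.58 ± 0.26 higher at 1 uM than untreated, and was not well above background at 0.01 uM. A Pfkp probe at chr13:6588296-6588355 differed by 0.48 ± 0.21 at 1 uM and -0.48 ± 0.22 at 0.01 uM from untreated. A Pkm2 probe at chr9:59520400-59520459 differed by 0.48 ± 0.20 at 1 uM and -0.47 ± 0.21 at 0.01 uM from untreated. The brightest Pfkp and Pkm2 probes had differences of -0.30 and -0.42 at 1 uM. The files place 1 of the 3 Slc2a3 probes on chromosome 17 and the others on chromosome 6.

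Flt1, which encodes the VEGF receptor VEGFR1, was alone among the other HIF targets in exceeding its 0.01 uM level 2-fold at 1 uM, where 12 of 34 compared were at least 2-fold lower. Over all genes 5.20% were 2-fold higher and 6.45% 2-fold lower, so 1 of 34 (2.94%) is below the share of higher genes. Its levels were 1.98 untreated, 1.74 at 0.01 uM and 2.94 at 1 uM. It was 2.30-fold higher at 1 uM than at 0.01 uM (1.20 ± 0.21), and 2 further probes gave 1.44 and 1.21. Against untreated cells it differed by 0.96 ± 0.20 at 1 uM, short of 2-fold, with further probes at 1.40 and 0.80.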
